A study of Mus musculus with 12 samples.

Results

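A set of 9 genes outside the 43 striatal identity markers used here was followed through 12 libraries of striatal RNA: Slc4a11, Arhgef39, Mafa, Ptprv, Abhd11os, Ptpn7, Mas1, Gm9754 and Abi3bp. They are 9 of 55487 genes in the count files and 9 of the 21309 genes that passed the filter on low counts. They were chosen by their large falls in libraries carrying the Huntington's disease allele, so the falls are given below as a description, without a test. Ryr1 and Scn4b, genes of striatal projection neurons that also fall steeply, served as references.

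The 12 libraries came from 12 mice, 3 for each group. The WT group were C57BL/6J mice. The HD group were heterozygous for the zQ175 neo-deleted allele, a knock-in that puts an expanded CAG repeat into mouse Htt under its own promoter, so that every cell expressing Htt carries it. The cGAS-KO group lacked cGAS, an enzyme that senses cytosolic DNA. The cGAS-KO;HD mice carried both alterations and are called double mutants. Age, sex and the part of Cgas that the knockout allele removes are not stated in the sources used here.

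Library totals lay between 59195327 and 72765623 counts. Htt, the targeted gene, measured 169 to 179 CPM (counts scaled to the library total) in WT, 131 to 144 in HD, 155 to 179 in cGAS-KO and 126 to 142 in the double mutants. Cgas was rare, at 1.32 to 1.56 CPM in WT, 1.07 to 1.26 in HD, 0.572 to 0.882 in cGAS-KO and 0.798 to 1.15 in the double mutants. The double mutants and HD overlapped in Cgas, so the counts are a weak check of the cGAS labels. Of 43 markers of striatal projection neurons, 39 fell and 0 rose with the knock-in allele, with a median log2 change of -1.11 against 0.01 over all genes tested. Library cGAS-KO 3 stood apart by its mitochondrial share, 11.5% of counts against 5.3% to 9.03% in the others. Xist was above 100 CPM in 6 libraries, 1 each in WT and cGAS-KO and 2 each in HD and the double mutants. The Y-linked gene Ddx3y measured 0 to 0.0997 CPM in these 6 libraries and 81.8 to 106 in the other 6. By these counts the libraries high in Xist came from females and the others from males. Sex was thus not balanced, with 4 libraries from females with the knock-in allele and 2 without it. The 3 mice of a group were separate animals, per the labels.

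Most striatal neurons are medium spiny neurons, inhibitory cells that project to the pallidum and midbrain and that lose many specialised transcripts in Huntington's disease models. Ryr1 encodes an intracellular calcium release channel and Scn4b an auxiliary subunit of voltage-gated sodium channels. The 9 genes have unlike products: an ion transporter (Slc4a11), an exchange factor for small GTPases (Arhgef39), a basic leucine zipper transcription factor best known from pancreatic beta cells (Mafa), a receptor-type tyrosine phosphatase gene (Ptprv), a phosphatase of MAP kinases best known from blood cells (Ptpn7), a receptor of the angiotensin system (Mas1), a protein of the extracellular matrix (Abi3bp) and 2 long RNAs read opposite to other genes (Abhd11os and Gm9754). In bulk tissue, fewer cells of a type and less RNA per cell cannot be told apart.

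Promoter sequences are shown for 2 places where genes annotated as neighbours fell together, and for Abhd11os and Ryr1, which took the most similar course. RefSeq (GRCm38.p6) has promoter windows, from 250 bases before a transcript's start to 50 after it, for 4 of the 9 genes: Ptpn7, Arhgef39, Abhd11os and Mas1. Capitals mark matches, on either strand, to GGGCGG (the SP1 box), CACGTG (the E-box) or CCAAT, motifs searched beside TGACGTCA (the CRE), TGANTCA (AP-1), GCGNGGGCG (EGR) and TATAAA. The Ptpn7 window, chr1:135132450-135132749 on the plus strand, also holds the start of Ptprv on the other strand, at base 135132594. The Arhgef39 window, chr4:43508698-43508997 on the minus strand, holds the start of the non-coding gene Gm12454. The Abhd11os window is chr5:135013108-135013407 on the minus strand, and that of Ryr1 is chr7:29125102-29125401 on the minus strand.
Ptpn7 and Ptprv: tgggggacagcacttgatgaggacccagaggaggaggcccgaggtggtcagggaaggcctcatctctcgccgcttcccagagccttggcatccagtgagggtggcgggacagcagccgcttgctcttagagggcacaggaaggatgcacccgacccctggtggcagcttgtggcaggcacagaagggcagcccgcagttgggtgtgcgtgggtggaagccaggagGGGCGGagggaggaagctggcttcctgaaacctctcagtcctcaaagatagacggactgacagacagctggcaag
Arhgef39 and Gm12454: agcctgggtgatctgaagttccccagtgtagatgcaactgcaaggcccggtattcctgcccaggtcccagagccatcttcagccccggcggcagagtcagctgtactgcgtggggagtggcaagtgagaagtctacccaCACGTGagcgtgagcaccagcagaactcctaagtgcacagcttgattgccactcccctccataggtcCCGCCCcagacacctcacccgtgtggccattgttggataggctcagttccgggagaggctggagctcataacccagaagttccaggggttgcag
Abhd11os: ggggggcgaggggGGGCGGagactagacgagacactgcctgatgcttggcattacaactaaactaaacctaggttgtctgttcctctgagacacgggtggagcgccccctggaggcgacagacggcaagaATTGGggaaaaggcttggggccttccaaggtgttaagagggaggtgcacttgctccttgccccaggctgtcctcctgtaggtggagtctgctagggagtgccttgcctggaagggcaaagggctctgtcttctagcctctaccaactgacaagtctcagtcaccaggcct
Ryr1: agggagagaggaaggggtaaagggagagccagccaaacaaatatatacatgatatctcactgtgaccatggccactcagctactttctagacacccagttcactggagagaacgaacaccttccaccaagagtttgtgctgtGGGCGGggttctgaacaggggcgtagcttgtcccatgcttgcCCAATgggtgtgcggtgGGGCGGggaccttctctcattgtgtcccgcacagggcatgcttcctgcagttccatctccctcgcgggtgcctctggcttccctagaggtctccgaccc
The SP1 box was found in the 4 windows shown but not in those of Mas1 and Scn4b, and in 35.7% of 32851 windows genome-wide. The E-box was found in the Arhgef39 window and in 7.15% of all windows. CCAAT was found in the Abhd11os, Ryr1, Mas1 and Scn4b windows and in 37.4% of all windows. No match was found in any of these windows to the CRE (1.79% of all windows), AP-1 (7.81%), EGR (5.55%) or TATAAA (13.6%). GC content was 63.3% in the Ptpn7 window, 59.3% for Arhgef39, 58.3% for Abhd11os, 56.7% for Ryr1, 66.3% for Scn4b and 46.0% for Mas1, against a median of 52.7%. A further Ptpn7 window, for a start downstream, held an SP1 box and 59.0% GC.

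The falls were large in both pairs of groups, and HD libraries lay under WT libraries, and double mutants under cGAS-KO, for each of the 9 genes. Over all genes tested, every HD library lay under every WT library for 13.1%, every double mutant under every cGAS-KO library for 10.7%, and all 6 knock-in libraries under all 6 others for 4.11%. All 6 knock-in libraries lay under the other 6 for 8 of the 9 genes, with Mas1 the exception. These shares describe the genes, since the falls chose them. Of 15257 genes with a mean of at least 1 CPM, Arhgef39 had rank 2 for the fall averaged over cGAS genotypes and Slc4a11 rank 3. Mas1, Abi3bp, Ptpn7, Gm9754, Mafa, Ptprv and Abhd11os had ranks 5, 6, 7, 9, 13, 14 and 20, beside 18 for Scn4b and 21 for Ryr1. Rank 1 was Gpx6, a glutathione peroxidase gene named here after its values were seen, at a log2 change of -4.88 ± 0.36 (SE).

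**Figure D1:**
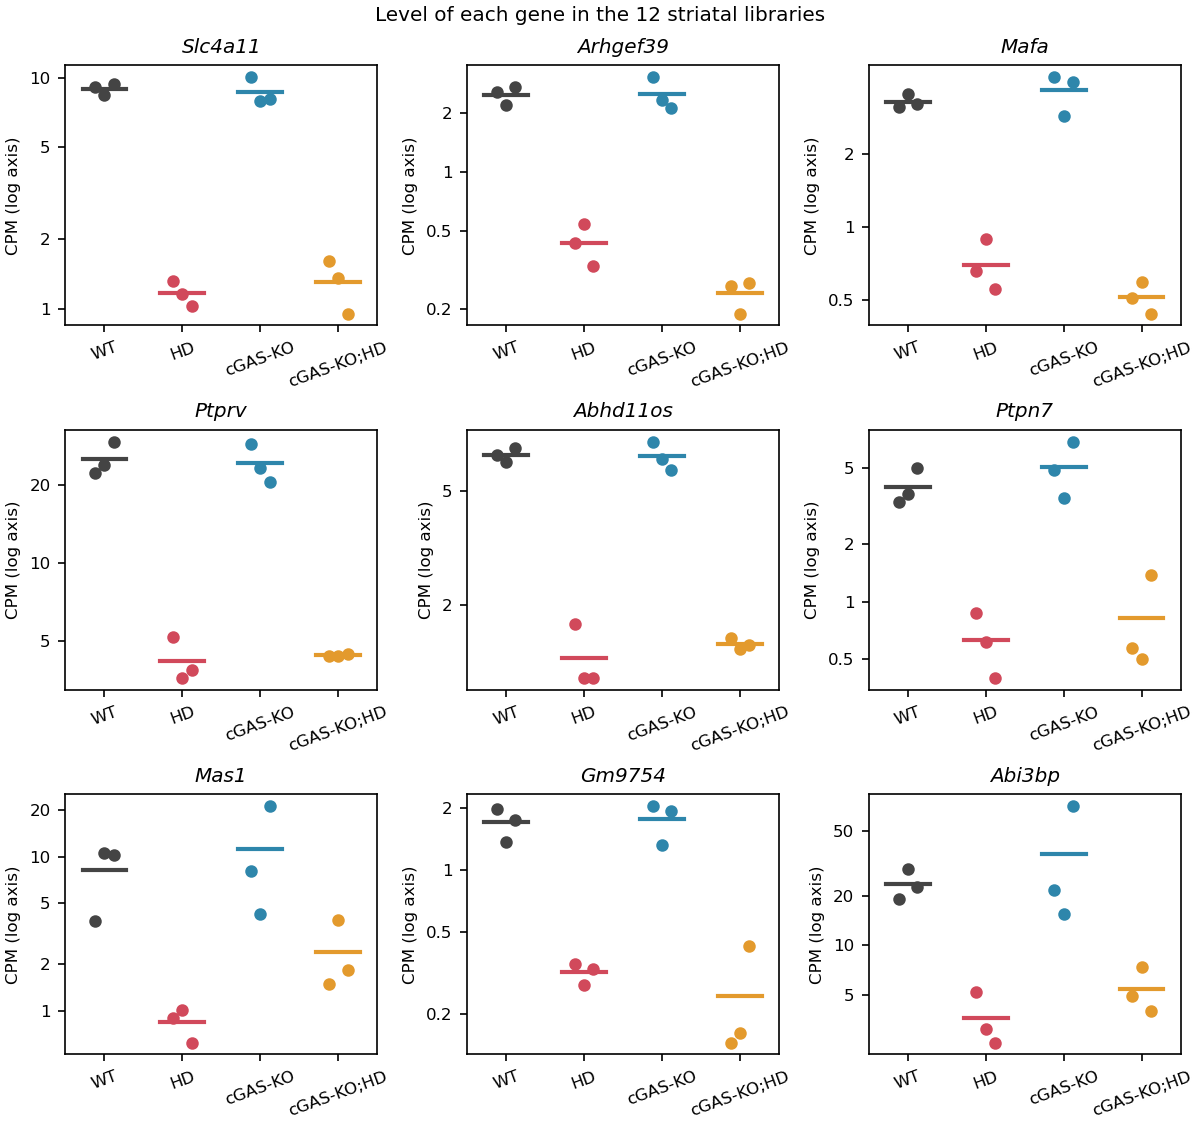
CPM of each gene (log axis) in the 12 libraries, with points for single libraries and bars for group means (n = 3). In each panel the HD points lie under the WT points and the double mutants under cGAS-KO, and in the Mas1 panel WT 1 (3.83) and double mutant 2 (3.86) meet.

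Slc4a11 (ENSMUSG00000074796, chr2:130684113-130697519 on the minus strand, GENCODE M21) encodes a membrane transporter of the SLC4 family, known from corneal dystrophies. It measured 9.06, 8.44 and 9.34 CPM in WT and 1.32, 1.15 and 1.03 in HD. In cGAS-KO it measured 10.0, 7.95 and 8.07 CPM, and in the double mutants 1.60, 1.36 and 0.955. The lowest WT library was 6.41 times the highest HD library, the widest gap of the 9 genes in this pair of groups, and 13.1% of the WT mean was left in HD. The log2 change was -2.94 ± 0.19 (SE) in HD against WT and -2.73 ± 0.19 in the double mutants against cGAS-KO.

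Arhgef39 (ENSMUSG00000051517, chr4:43496142-43499695, minus strand) encodes a guanine nucleotide exchange factor of the Dbl family, which acts on small GTPases. It measured 2.55, 2.19 and 2.70 CPM in WT and 0.434, 0.541 and 0.331 in HD. In cGAS-KO it measured 3.05, 2.34 and 2.12 CPM, and in the double mutants 0.262, 0.189 and 0.271. All 3 double mutants lay under all 3 HD libraries, which was not so for any other of the 9 genes. The log2 change was -2.51 ± 0.25 (SE) in HD against WT and -3.37 ± 0.26 in the double mutants against cGAS-KO.

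Mafa (ENSMUSG00000047591, chr15:75745490-75748228, minus strand) measured 3.10, 3.53 and 3.22 CPM in WT and 0.658, 0.892 and 0.556 in HD. It measured 4.14, 2.86 and 3.95 CPM in cGAS-KO and 0.510, 0.594 and 0.442 in the double mutants. HD 2 was the highest of the knock-in libraries and lay under the lowest WT library, which was 3.48 times as high. The log2 change was -2.22 ± 0.22 (SE) in HD against WT and -2.82 ± 0.23 in the double mutants against cGAS-KO.

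Ptprv and Ptpn7 are neighbours on chromosome 1, read away from each other. Ptprv (ENSMUSG00000097993, chr1:135108497-135132594, minus strand, annotated as a processed transcript) measured 22.3, 23.8 and 29.3 CPM in WT, 5.18, 3.61 and 3.86 in HD, 28.8, 23.2 and 20.5 in cGAS-KO, and 4.37, 4.37 and 4.49 in the double mutants. Ptpn7 (ENSMUSG00000031506, chr1:135132700-135145317, plus strand) measured 3.34, 3.68 and 5.01 CPM in WT, 0.868, 0.614 and 0.397 in HD, 4.90, 3.51 and 6.92 in cGAS-KO, and 0.568, 0.499 and 1.38 in the double mutants. The double mutants were nearly level for Ptprv and spread 2.77-fold for Ptpn7. The log2 changes of Ptprv were -2.57 ± 0.17 (SE) in HD against WT and -2.45 ± 0.16 in the double mutants against cGAS-KO. Those of Ptpn7 were -2.68 ± 0.41 and -2.64 ± 0.40.

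Abhd11os and Gm9754 are long RNAs. Abhd11os (ENSMUSG00000085042, chr5:135012114-135013253, minus strand, annotated as a transcribed unitary pseudogene) is known as an RNA enriched in striatum. It measured 6.62, 6.30 and 7.04 CPM in WT, 1.71, 1.11 and 1.11 in HD, 7.40, 6.44 and 5.90 in cGAS-KO, and 1.53, 1.40 and 1.45 in the double mutants. HD 1 was the highest knock-in library, and the log2 changes were -2.34 ± 0.18 (SE) and -2.17 ± 0.18. Gm9754 (ENSMUSG00000029360, chr5:118065360-118069710, plus strand, annotated as antisense) measured 1.99, 1.37 and 1.75 CPM in WT, 0.350, 0.278 and 0.331 in HD, 2.05, 1.32 and 1.93 in cGAS-KO, and 0.146, 0.162 and 0.427 in the double mutants. It had 52 counts over the 3 double mutants and 69 over HD, the fewest of the 9 genes in HD, and the log2 changes were -2.41 ± 0.36 (SE) and -2.84 ± 0.37.

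Mas1 (ENSMUSG00000068037, chr17:12841079-12868143, minus strand), a G protein-coupled receptor known from hippocampus and cortex, varied most. It measured 3.83, 10.5 and 10.2 CPM in WT, 0.896, 1.01 and 0.622 in HD, 8.02, 4.24 and 21.3 in cGAS-KO, and 1.50, 3.86 and 1.84 in the double mutants. The 3 cGAS-KO libraries spanned 5.01-fold, and double mutant 2 reached the level of WT 1. The log2 change was -3.28 ± 0.66 (SE) in HD against WT and -2.21 ± 0.61 in the double mutants against cGAS-KO. Abi3bp (ENSMUSG00000035258, chr16:56477878-56690135, plus strand) measured 19.2, 29.0 and 22.7 CPM in WT, 5.20, 3.07 and 2.55 in HD, 21.9, 15.6 and 70.7 in cGAS-KO, and 4.93, 7.41 and 3.97 in the double mutants. Library cGAS-KO 3 was 4.53 times cGAS-KO 2, and the log2 changes were -2.71 ± 0.56 (SE) and -2.73 ± 0.56.

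Per kilobase of exon, Abhd11os was the most abundant of the 9 genes in WT, at 9.50 ± 0.531 CPM per kilobase (SD, n = 3), well under Scn4b at 115 ± 20.6. Ptprv (3.60 ± 0.527), Abi3bp (3.19 ± 0.671) and Mas1 (3.13 ± 1.44) followed and did not differ beyond their spread. Slc4a11 came next at 1.79 ± 0.0914, near Ryr1 at 1.89 ± 0.175, and then Mafa at 1.20 ± 0.0802. Arhgef39 (0.928 ± 0.0984), Ptpn7 (0.657 ± 0.144) and Gm9754 (0.567 ± 0.104) were the lowest, and the last pair did not differ beyond their spread.

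Replicate spread divided the 9 genes. The SD of log2 CPM within a group, pooled over the 4 groups, was 0.20 for Abhd11os, 0.21 for Ptprv, 0.23 for Slc4a11, 0.25 for Mafa and 0.26 for Arhgef39, between Ryr1 (0.16) and Scn4b (0.28). It was 0.45 for Gm9754, 0.55 for Ptpn7, 0.69 for Abi3bp and 0.82 for Mas1. Leaving out cGAS-KO 3 moved the change of Mas1 in the double mutants against cGAS-KO from -2.21 to -1.36 and that of Abi3bp from -2.73 to -1.79. Leaving out double mutant 3 moved that of Gm9754 to -3.51 and that of Ptpn7 to -3.26.

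The falls were also described among libraries of like Xist level, without a test. For the 8 genes that did not overlap over all 12 libraries, no overlap within an Xist class follows from that. With Xist high (2 libraries without the allele, 4 with it), the log2 difference of means ran from -3.19 (Abi3bp) to -2.14 (Abhd11os), and Mas1 overlapped. With Xist low (4 against 2), it ran from -3.15 (Ptpn7) to -2.36 (Abhd11os), and Mas1 did not overlap.

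How far the falls followed those of Ryr1 and Scn4b was read in each knock-in library, as its log2 CPM minus the mean of its controls. Ryr1 lay between -2.43 and -1.98 on this scale and Scn4b between -3.02 and -2.06. Abhd11os stayed closest to Ryr1: it lay -0.08 ± 0.10 (SD, n = 3) from Ryr1 in HD and 0.06 ± 0.13 in the double mutants, and between -0.15 and 0.20 in single libraries. Ptprv lay under Ryr1 in all 6 libraries, by a nearly constant step of -0.31 ± 0.04 in HD and -0.23 ± 0.08 in the double mutants. Slc4a11 also lay under Ryr1 in all 6 libraries, at -0.64 ± 0.14 in HD and -0.52 ± 0.48 in the double mutants. Over the 6 libraries, the r of Slc4a11 with Ryr1 was 0.12 (exact permutation p = 0.783, adjusted 0.91).

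Arhgef39 lay -0.19 ± 0.42 (SD, n = 3) from Ryr1 in HD and -1.02 ± 0.22 in the double mutants, but under Scn4b in all 6 libraries, by -0.30 ± 0.21 and -0.56 ± 0.42. Mafa was near Scn4b on average, at -0.04 ± 0.23 in HD and -0.08 ± 0.49 in the double mutants. Gm9754 lay -0.14 ± 0.25 and -0.16 ± 0.46 from Scn4b. The distance of Ptpn7 from Ryr1 ranged from -0.97 to 0.27 over the 6 libraries and that of Abi3bp from -0.77 to 0.30. For Mas1 it ranged from -1.12 to 1.04, the widest of the 9 genes.

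**Figure D2:**
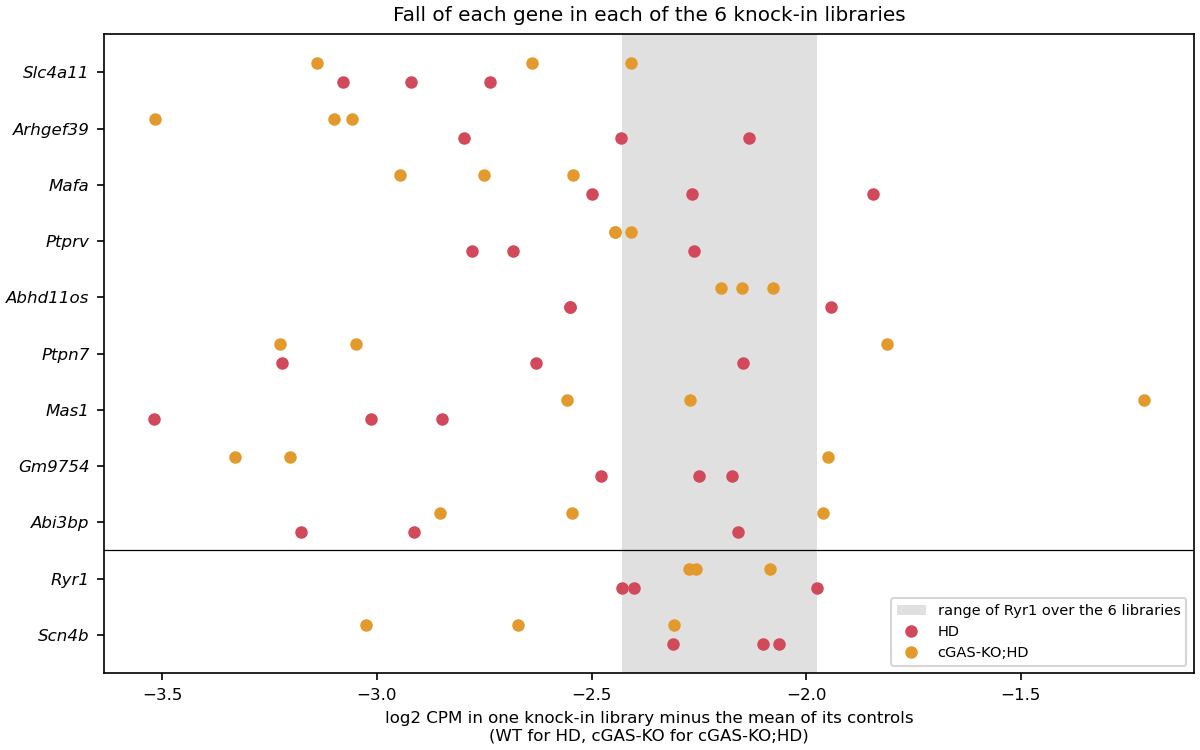
Log2 CPM of each gene in each knock-in library minus the mean of its controls, WT for HD and cGAS-KO for the double mutants, with the range of Ryr1 shaded (-2.43 to -1.98). Points of Abhd11os gather around the shaded range, those of Slc4a11 lie from -3.14 to -2.41, and those of Mas1 spread from -3.52 to -1.21.

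The rule did not use differences among libraries that share the knock-in genotype, so these were tested. Correlations of log2 CPM were computed over the 6 knock-in libraries and, apart, over the 6 others, which gave 36 relations of 9 genes with 2 references. Each set joins libraries with and without cGAS, so a difference between these groups enters r. With 720 pairings the smallest p is 0.00139, which alone adjusts to 0.05 over 36 relations, so a single relation could not pass under 0.05. None of the 36 passed by Pearson's r or by Spearman's coefficient, and 4 had an unadjusted exact permutation p under 0.05 for r. Ptprv followed Ryr1 in the knock-in libraries at r = 0.93 (two-sided exact permutation p = 0.00139, adjusted 0.05) and Spearman's coefficient = 1 (exact p = 0.00278, adjusted 0.1). The double mutants were nearly level for Ptprv, at 4.372, 4.374 and 4.488 CPM, so their rank order rests on very small differences. Without HD 2 and HD 3, the libraries farthest from the median of Ryr1, r was 0.73. Abhd11os followed Ryr1 there at r = 0.92 (exact permutation p = 0.0264, adjusted 0.317) and Spearman's coefficient = 0.83 (exact p = 0.0583, adjusted 0.35), and at r = 0.50 without these libraries, so that the relation rests largely on them.

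In the libraries without the allele, Ptprv followed Scn4b at r = 0.97 (exact permutation p = 0.00556, adjusted 0.1) and Spearman's coefficient = 0.89 (exact p = 0.0333, adjusted 0.35), with r = 0.93 after cGAS-KO 1 and cGAS-KO 3 were left out. Abhd11os followed Scn4b at r = 0.85 (exact permutation p = 0.0361, adjusted 0.325) and Spearman's coefficient = 0.83 (exact p = 0.0583, adjusted 0.35), with r = 0.58 after the same libraries were left out. Arhgef39 followed Scn4b in the knock-in libraries by rank (Spearman's coefficient = 0.94, exact permutation p = 0.0167, adjusted 0.3), with r = 0.76 (exact p = 0.0847, adjusted 0.394) and r = 0.96 without the 2 libraries farthest from the median of Scn4b. All 3 double mutants lay under all 3 HD libraries for both of these genes, and with each group centred on its own mean r was 0.31 (exact permutation p = 0.472, adjusted 0.944). Centred in this way, a choice made after the values were seen, Ptprv kept r = 0.95 with Ryr1 in the knock-in libraries (exact permutation p = 0.0278, adjusted 0.25). In the libraries without the allele it kept r = 0.97 with Scn4b (exact p = 0.0278, adjusted 0.25). Abhd11os had r = 0.90 with Ryr1 in the knock-in libraries (exact permutation p = 0.194, adjusted 0.583). In those without the allele it had r = 0.85 with Scn4b (exact p = 0.0833, adjusted 0.444). None of the 36 passed, where 36 pairings give a smallest p of 0.0278. With Scn4b in the knock-in libraries, r before centring was -0.11 for Ptprv (exact permutation p = 0.853, adjusted 0.914). For Abhd11os it was -0.29 (exact permutation p = 0.593, adjusted 0.791). Over the 9 genes, the median r before centring was 0.38 with Ryr1 and -0.11 with Scn4b in the knock-in libraries, and 0.49 and 0.03 in the others.

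Mas1 varied with markers of cortical projection neurons. Whether cortical tissue in the samples had a part in the falls was not tested. These 15 markers, among them Slc17a7 and Neurod6, had a mean log2 CPM of 3.97, 5.66 and 5.87 in WT, 4.08, 4.22 and 3.68 in HD, 5.11, 4.40 and 6.35 in cGAS-KO, and 4.60, 5.07 and 4.70 in the double mutants. Their summed level was 572 to 1555 CPM in WT, 551 to 576 in HD, 679 to 2255 in cGAS-KO and 664 to 835 in the double mutants, and 0 of the 15 were at 0 counts in any library. With the knock-in allele 3 of the 15 fell, Lamp5 and Rasgrf2 among them, and 0 rose, with a median log2 change of -1.16. The order of the 6 knock-in libraries by Mas1 was their order by this list. WT 1 and cGAS-KO 2, the lowest 2 of the other libraries by the list, were also the lowest for Mas1. This was not particular to the cortical list. Markers of claustrum and deep layers gave the knock-in libraries the same order, from HD 3 (4.22) to double mutant 2 (4.79). Markers of thalamus, septum and pallidum ran nearly the other way. They were highest in HD 3 (6.03) and lowest in double mutant 2 (4.98) with the allele. Without it, they were highest in WT 1 (5.73) and lowest in cGAS-KO 3 (4.12). Relations of Mas1 with these other lists were not tested.

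Relations with the cortical list, chosen after the values were seen, were computed for the 9 genes over the same sets of 6 libraries. By r, 2 of 18 passed, both of Mas1. The adjustment covers these 18 relations but not the choice of this list among several, so the p-values understate the role of that choice. In the knock-in libraries r was 0.98 (exact permutation p = 0.00417, adjusted 0.0375) and Spearman's coefficient 1 (exact p = 0.00278, adjusted 0.05), and r was 0.99 without the 2 libraries farthest from the median. In the others r was 0.97 (exact permutation p = 0.00278, adjusted 0.0375) and Spearman's coefficient 0.94 (exact p = 0.0167, adjusted 0.1), and r was 0.92 without the 2 farthest. These sets join 2 groups each, and all 3 double mutants lay above all 3 HD libraries both for Mas1 and for the list. With each group centred on its own mean, r was 0.93 (exact permutation p = 0.0278, adjusted 0.333) and 0.98 (exact p = 0.0556, adjusted 0.333), so neither passed. That test has 36 pairings and a smallest p of 0.0278, so a single relation could not pass it. Abi3bp had r = 0.79 in the libraries without the allele (exact permutation p = 0.0375, adjusted 0.219), Spearman's coefficient = 0.89 (exact p = 0.0333, adjusted 0.15) and r = 0.81 without the 2 farthest. Ptpn7 had r = 0.81 there (exact permutation p = 0.0486, adjusted 0.219), Spearman's coefficient = 0.94 (exact p = 0.0167, adjusted 0.1) and r = 0.59 without the 2 farthest. In the knock-in libraries r was 0.78 for Abi3bp (exact permutation p = 0.0708, adjusted 0.255), falling to 0.02 without the 2 farthest, and 0.27 for Ptpn7 (exact permutation p = 0.614, adjusted 0.789). Within a Xist class these sets hold only 2 or 4 libraries, too few for a correlation.

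With the level of the cortical list as a covariate, also chosen after the values were seen, the changes of Mas1 were -1.96 ± 0.26 (SE) in HD against WT and -1.46 ± 0.22 in the double mutants against cGAS-KO, and those of Abi3bp -1.95 ± 0.41 and -2.14 ± 0.39. Those of Ptprv were -2.54 ± 0.19 and -2.44 ± 0.16, close to the values without the covariate. The median log2 change of the list with the allele was -1.16, so this fit cannot fully separate the list from the allele. Among single libraries at like levels of the list, HD 1 (4.08) had 0.896 CPM of Mas1 and WT 1 (3.97) had 3.83. Double mutant 2 (5.07) had 3.86 and cGAS-KO 1 (5.11) had 8.02. These pairs are a description, and a part of cortical tissue in the fall was not tested.

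**Figure D3:**
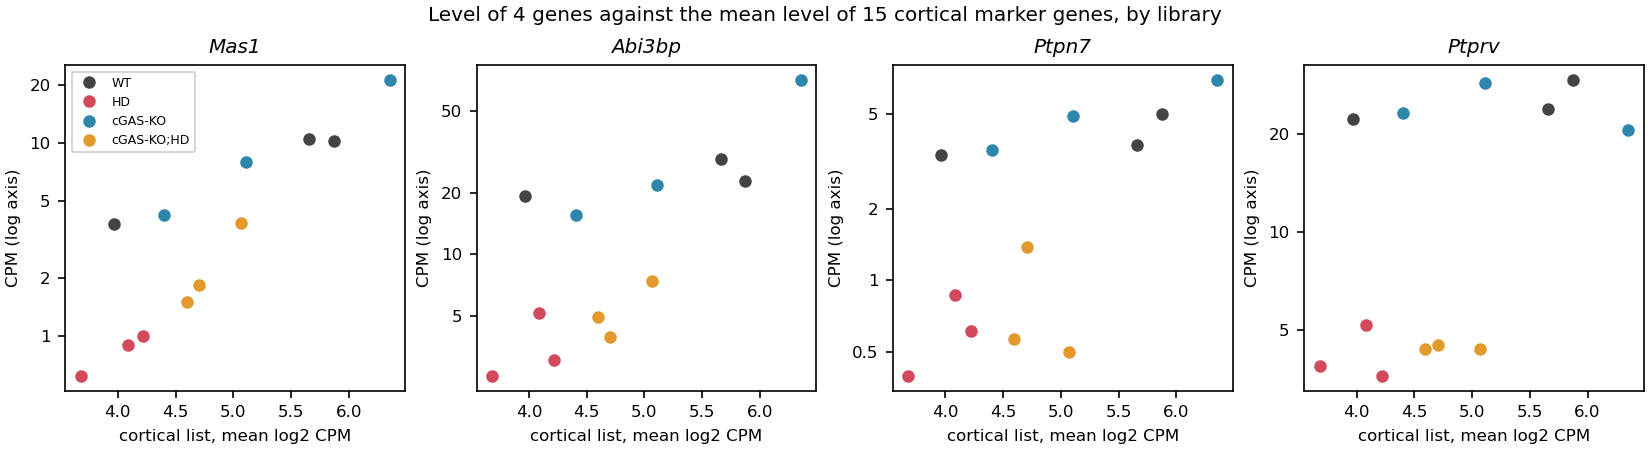
CPM of Mas1, Abi3bp, Ptpn7 and Ptprv (log axis) against the mean log2 CPM of 15 cortical markers, with a point for each library. Mas1 rises with the list both in the libraries with the allele (r = 0.98) and in those without it (r = 0.97), and knock-in points lie under the others at like levels, while Ptprv stays between 20.5 and 29.3 CPM in the libraries without the allele (r = 0.08 with the list).

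Loss of cGAS was compared next, to ask whether it changes the level of these genes or their fall. No gene of the 9 was called at a Benjamini-Hochberg adjusted p under 0.05 by edgeR's quasi-likelihood test in any of 4 comparisons. Averaged over knock-in genotypes, 0 of 9 were called beside 0% of all genes, with 2 of 9 and 1839 genes (8.63%) at an unadjusted p under 0.05. For the interaction, which asks whether the fall differs with and without cGAS, 0 of 9 were called beside 0.00469% of all genes, with 1 of 9 and 2.84% of all genes at an unadjusted p under 0.05. In cGAS-KO against WT, 0 of 9 were called beside 0% of all genes, and 0 of 9 were under that p, beside 4.28% of all genes. In the double mutants against HD, 0 of 9 were called beside 0.00469% of all genes, and 2 of 9 were under that p, beside 5.78% of all genes. The last 2 comparisons share the WT or HD libraries with the falls. DESeq2 and limma-voom also called 0 of 9 in each of the 4 comparisons, beside 3 to 10 and 0 to 1 of all 21309 genes.

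The genes under the unadjusted p were Arhgef39 and Mas1, with opposite signs. Arhgef39 lay lower in the double mutants than in HD, at a log2 change of -0.85 ± 0.27 (SE, edgeR adjusted p = 0.757), while cGAS-KO and WT differed by 0.01 ± 0.22 (adjusted p = 0.996). Its interaction was -0.86 ± 0.35 (edgeR adjusted p = 1.00). Mas1 lay higher in the double mutants than in HD, at 1.51 ± 0.64 (edgeR adjusted p = 0.757), and so did the cortical list, whose lowest double mutant (4.60) was above its highest HD library (4.22). With the cortical list as a covariate that difference of Mas1 was 0.65 ± 0.25 (adjusted p = 0.913). The 7 other genes differed between double mutants and HD by -0.44 ± 0.23 (Mafa) to 0.59 ± 0.55 (Abi3bp). Standard errors of 0.15 to 0.22 for Slc4a11, Arhgef39, Mafa, Ptprv and Abhd11os in cGAS-KO against WT, and of 0.32 to 0.58 for the other 4, set the size of change that could be seen.

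**Figure D4:**
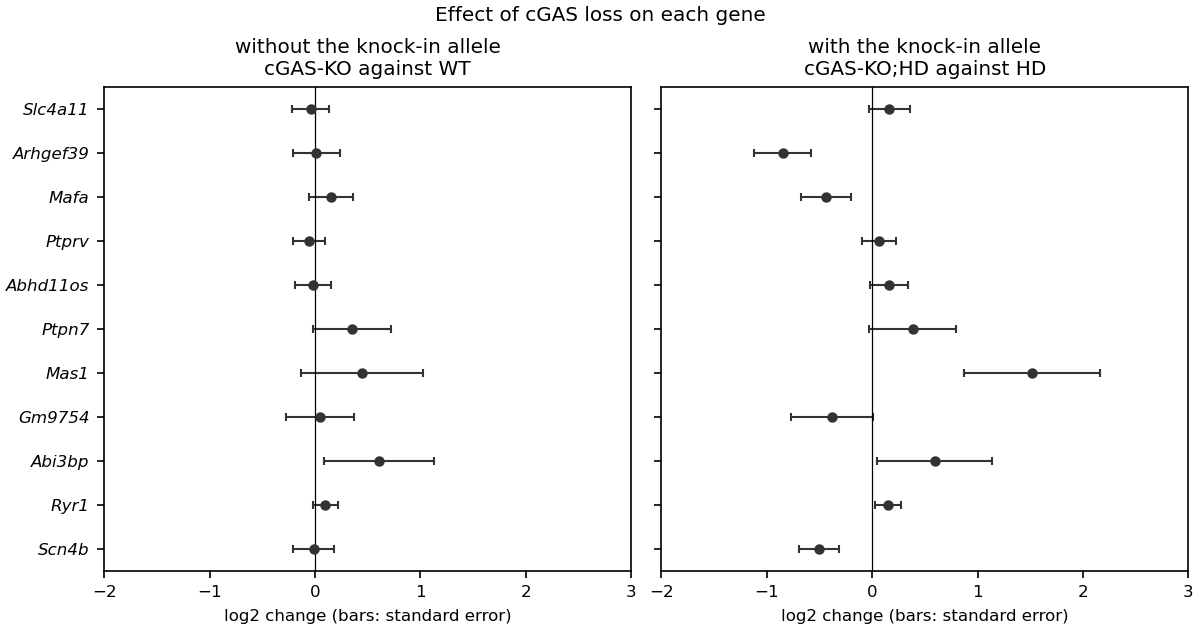
Log2 change with cGAS loss (points) and its standard error (bars), without the knock-in allele on the left and with it on the right, for the 9 genes and both references. On the left all points lie between -0.06 and 0.61, and on the right Arhgef39 (-0.85) and Mas1 (1.51) lie farthest from 0.

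Relatives of the 9 genes were read for the same change. Those named here that fell did so by less than the 9 genes. The 9 were chosen for their large falls, so this difference in size largely follows from that choice. With the knock-in allele, averaged over cGAS genotypes, 13.2% of all genes were called, 7.63% lower and 5.59% higher. Of 8 other SLC4 transporters tested, 1 fell and 0 rose: Slc4a4, the sodium bicarbonate cotransporter of astrocytes, from 292 ± 25.0 CPM (SD over 6 libraries) to 247 ± 16.4, a log2 change of -0.24 ± 0.07 (SE, edgeR adjusted p = 0.0377).

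Among 13 phosphatases that act on ERK and related MAP kinases, as Ptpn7 does, 5 fell and 1 rose. Ptpn5, the striatum-enriched phosphatase STEP, fell from 406 ± 38.0 CPM (SD) to 266 ± 28.5, at -0.61 ± 0.08 (SE, edgeR adjusted p = 0.000504). Dusp1 fell by 0.69 ± 0.19 (log2, edgeR adjusted p = 0.0319) and Dusp14 by 0.90 ± 0.25 (edgeR adjusted p = 0.0387), while Dusp16 rose by 0.43 ± 0.08 (edgeR adjusted p = 0.00313). Of 5 receptor phosphatases related to Ptprv, 2 fell and 0 rose: Ptprb at -0.34 ± 0.09 (edgeR adjusted p = 0.0305) and Ptprj at -0.29 ± 0.08 (edgeR adjusted p = 0.0301).

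Of 14 genes of the angiotensin system tested, the setting of Mas1, 0 fell and 0 rose. Agtr1a, the main angiotensin receptor, measured 1.37 ± 0.208 CPM without and 0.927 ± 0.267 CPM with the allele (SD over 6 libraries), at a log2 change of -0.57 ± 0.18 (edgeR adjusted p = 0.06). Of 35 Dbl-family exchange factors, relatives of Arhgef39, 10 fell and 2 rose. Ngef, the exchange factor ephexin, fell by 0.87 ± 0.15 (log2, edgeR adjusted p = 0.00311), Tiam1 by 0.34 ± 0.05 (edgeR adjusted p = 0.000429) and Arhgef4 by 0.25 ± 0.05 (edgeR adjusted p = 0.00449), while Arhgef10 rose by 0.47 ± 0.06 (edgeR adjusted p = 0.00033).

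Of 30 matrix glycoproteins and proteoglycans, set beside Abi3bp, 5 rose and 3 fell. Thbs2, a thrombospondin, rose from 7.21 ± 0.82 CPM (SD) to 13.8 ± 2.34, at 0.94 ± 0.11 (SE, edgeR adjusted p = 0.000128), and Matn4 rose by 0.70 ± 0.16 (edgeR adjusted p = 0.0144). Vcan, the proteoglycan versican, rose by 0.23 ± 0.06 (edgeR adjusted p = 0.0297). Matn2 fell by 0.57 ± 0.11 (edgeR adjusted p = 0.00606), and Fn1, fibronectin, was at -0.30 ± 0.20 (edgeR adjusted p = 0.383). Of 19 ABHD hydrolases, 2 fell and 0 rose: Abhd2 at -0.39 ± 0.09 (edgeR adjusted p = 0.0163) and Abhd14a at -0.24 ± 0.06 (edgeR adjusted p = 0.02). The median log2 changes of these 7 families ran from -0.19 (ERK phosphatases) to 0.03 (SLC4 transporters), against 0.01 over all genes tested.

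The genes next to the 9 were read for the same change, from the GENCODE M21 annotation of GRCm38. Of 16 nearest tested neighbours outside the set, 4 fell (beside 7.63% of all genes), 0 rose and 12 were not called, with a median log2 change of -0.08. The 4 include Gm12454, which may not be separate from Arhgef39, and Gm43372, with only 106 counts in all. Ptprv and Ptpn7 are each other's nearest neighbour, with 105 bases between them. Beyond them, Lgr6 was at 0.50 ± 0.20 (SE, edgeR adjusted p = 0.133) and Arl8a at -0.06 ± 0.08 (edgeR adjusted p = 0.681).

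Gm12454 (chr4:43504428-43508747) lies 4732 bases upstream of Arhgef39 on the same strand and fell by 2.27 ± 0.26 (log2, SE, edgeR adjusted p = 0.000125), from 1.59 to 0.345 CPM. The RefSeq start of Arhgef39 is the start of Gm12454, so the 2 annotations place the beginning of the gene differently. Whether the counts divide a single transcript was not tested. On the other side, Ccdc107, only 220 bases away, was at -0.04 ± 0.06 (edgeR adjusted p = 0.728). Gm43372, 2005 bases from Abhd11os on the same strand, fell by 2.33 ± 0.58 (edgeR adjusted p = 0.019) on 106 counts in all. Abhd11, whose exons overlap those of Abhd11os by 62 bases on the other strand, was at -0.13 ± 0.06 (edgeR adjusted p = 0.156). Stx1a, the syntaxin gene on its other side, was at -0.83 ± 0.31 (edgeR adjusted p = 0.118), with 67.3 CPM without and 38.0 CPM with the allele.

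Gm9754 lies within Fbxw8, on the other strand, and shares 1680 exon bases with it. Fbxw8, an F-box gene, was at 0.23 ± 0.08 (SE, edgeR adjusted p = 0.0642), with 35.5 CPM without and 41.7 CPM with the allele. The library kit keeps strand, but how strand was treated in counting is not stated, so a share of Fbxw8 reads in the Gm9754 counts was not tested. The nearest tested genes that flank it without overlap both fell. Tesc, a calcium-binding protein gene 3481 bases away, fell by 1.28 ± 0.12 (edgeR adjusted p = 4.37e-05). Hrk, a pro-apoptotic BH3-only gene, fell by 1.66 ± 0.10 (edgeR adjusted p = 8.23e-07), but lies 94937 bases away, beyond the rest of Fbxw8.

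The nearest neighbours of the other 4 genes were not called. Slc4a11 lies between Itpa (-0.13 ± 0.12, edgeR adjusted p = 0.536) and 4930402H24Rik (0.11 ± 0.06, edgeR adjusted p = 0.272), and Mafa between Rhpn1 (-0.20 ± 0.12, edgeR adjusted p = 0.305) and Zc3h3 (0.01 ± 0.10, edgeR adjusted p = 0.969). Abi3bp lies between Impg2 (0.08 ± 0.24, edgeR adjusted p = 0.876) and Tfg (0.08 ± 0.12, edgeR adjusted p = 0.722), the latter 196 bases away. Mas1 overlaps Airn, an antisense RNA (0.09 ± 0.19, edgeR adjusted p = 0.803), and lies between Igf2r (-0.09 ± 0.06, edgeR adjusted p = 0.316) and Pnldc1 (0.10 ± 0.17, edgeR adjusted p = 0.757).

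**Figure D5:**
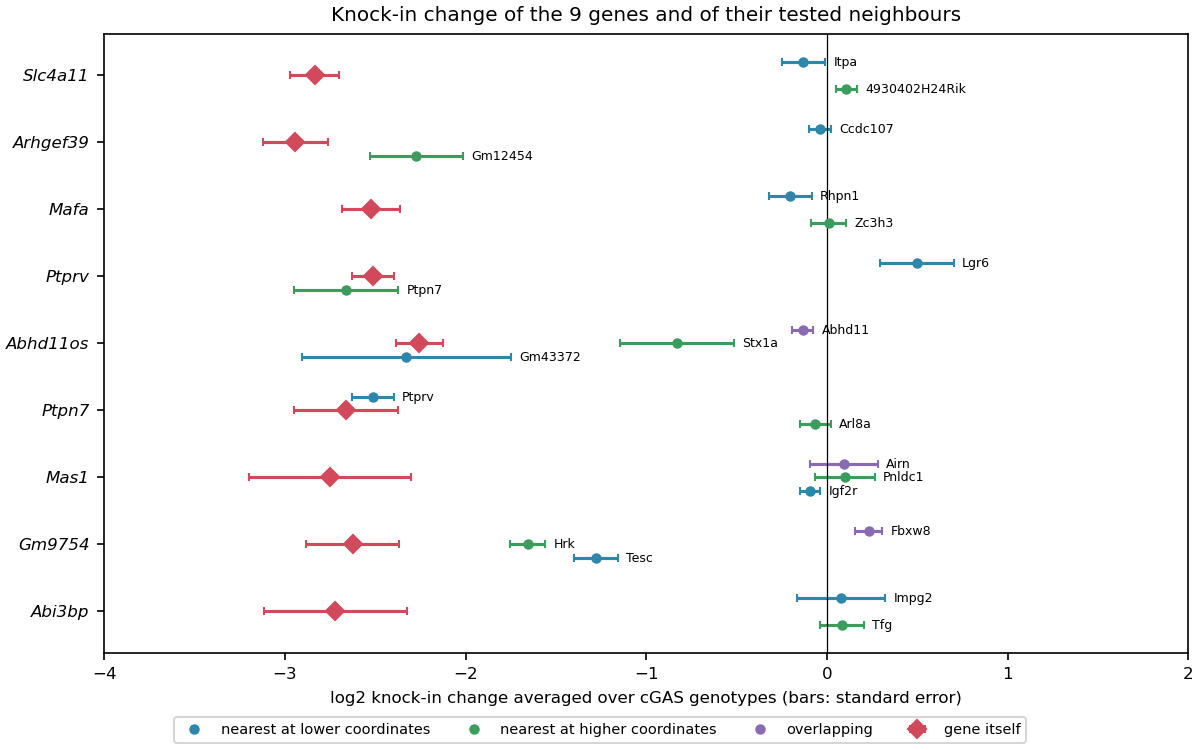
Log2 knock-in change averaged over cGAS genotypes, with standard errors, of the 9 genes (diamonds) and of their nearest tested neighbours and overlapping genes (circles). Most neighbours lie near 0, while Gm12454 (-2.27), Gm43372 (-2.33), Hrk (-1.66) and Tesc (-1.28) lie on the side of the 9 genes and Stx1a (-0.83) lies between.

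Likeness over all 12 libraries was measured as the root mean square (RMS) difference of log2 CPM relative to each gene's WT mean, among 15248 genes outside the set with a mean of at least 1 CPM. The falls weigh heavily in it, so genes with falls of like size come first. Abhd11os was closest to Ryr1, at an RMS of 0.11, and then to Ackr2 at 0.24. Ptprv was closest to Ryr1 (0.27) and Scn4b (0.30). Gm9754 was closest to Scn4b (0.34) and the predicted gene Gm39043 (0.47).

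Mafa was closest to Sec14l3 (RMS 0.28) and Scn4b (0.31), Arhgef39 to Vwa7 (0.37) and Scn4b (0.38), Slc4a11 to Vwa7 (0.37) and Sec14l3 (0.39), and Ptpn7 to Gm39043 (0.33) and Ryr1 (0.46). Abi3bp was closest to Gm19410 (0.47) and Ryr1 (0.62). Mas1 had no gene as close: Gm19410 came first at 0.56 and Igfn1 next at 0.64, with Ryr1 at rank 12 and Scn4b at rank 55. Within the set, Mas1 was closest to Abi3bp (0.45), and Abhd11os to Ptprv (0.22).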

How the data were processed

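Libraries were made from poly(A) RNA with a strand-keeping kit, as the labels' protocols say. The authors deposited 1 table of raw counts by Ensembl gene for each library. The aligner, annotation and counting rule: not given in the sources used here. Symbols and coordinates came from GENCODE M21 (GRCm38), which matched 55227 genes (99.5%), and other IDs held up to 0.00617% of counts. Sample titles gave the groups and replicate numbers. Genes were kept by filterByExpr (minimum count 10, minimum total 15), scaled by TMM and fitted with edgeR's robust quasi-likelihood model over 12 libraries, with 1 mean per group, 8 residual degrees of freedom and a biological coefficient of variation of 18.1%. Calls used a Benjamini-Hochberg adjusted p under 0.05 over all 21309 genes. CPM used TMM-scaled totals, and log2 CPM a prior count of 2. The fit was tested on simulated data. Relations used exact permutation over 720 pairings, two-sided.

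The 9 genes and the lists were chosen with earlier results of these data known. Genes were named by rule: the 9, Ryr1, Scn4b, Htt and Cgas, up to 4 called members of each family and its closest paralogue, the 2 most alike genes, and neighbours. A few results under this rule are not reported here. Alternatives were DESeq2 size factors, 2 other filters, DESeq2, limma-voom, a replicate block, fits on the 2 groups compared, a prior count of 0.5 and each library left out. Leaving out WT 1 and cGAS-KO 3 together, the covariates, the cortical relations and relations with each group centred were added after seeing the data. Libraries over 100 CPM of Xist were called high. The software was Python 3.11.15 with scipy 1.17.1, and R 4.3.3 with DESeq2 1.42.0, edgeR 4.0.16 and limma 3.58.1.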

Additional observations from a re-analysis of the deposited data

How the results depend on the processing

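Across 270 recomputed values of the 18 knock-in changes (9 genes in 2 pairs of groups), 0 reversed and 9 moved by more than the spread between replicates, and the weakest was -1.35, for Mas1 in the double mutants against cGAS-KO with WT 1 and cGAS-KO 3 both left out. The 9 were Mas1 and Abi3bp without cGAS-KO 3, alone or with WT 1, and with the cortical covariate in HD against WT, Ptpn7 and Gm9754 without double mutant 3, and Abhd11os without HD 1 (-2.59). No gene of the 9 was called in any of 74 recounts of the 4 cGAS comparisons. At most 3 of the 9 had an unadjusted p under 0.05. The smallest adjusted p of the 9 was 0.145, for the interaction with WT 1 and cGAS-KO 3 left out. With these 2 libraries left out, 105 of 21724 genes tested were called for the interaction and 38 for cGAS-KO against WT. The main fit called 1 and 0 of 21309, so the genome-wide counts depend on these libraries. The count of genes called for the averaged knock-in effect was 2816. It ran from 1784 (without WT 2) to 3596 (without WT 1) with single libraries left out, and was 1803 without WT 3, 4595 without WT 1 and cGAS-KO 3, and 1748 with the cortical covariate. With the replicate block it was 2313, and 0 of the 9 genes were called in the 4 cGAS comparisons, beside 0 to 1 of all 21309 genes. Libraries with the same number deviated together in few cases (18 pairs, r from -0.23 to 0.20, with 2 over 0.1), so the numbers were not read as pairs. None of the 36 relations passed with size factors, a prior count of 0.5 or groups centred. Without the 2 farthest libraries only 24 pairings remain, so relations were then given as r without a test. Gm9754, Arhgef39, Mafa and Ptpn7 rest on 173 counts or fewer in each knock-in group, which limits their precision.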
